A study of Mus musculus with 2 samples.

Results

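Cytosolic ribosomal protein genes were examined in mRNA-seq of mouse intestinal organoids. The genes were taken by symbol: Rpl or Rps with a number and at most 1 further letter from a, x, l and y, plus Rplp0, Rplp1, Rplp2 and Rpsa, without Rps27l. The rule found 79 of the 19294 listed genes, namely 30 of the small (40S) subunit, 46 of the large (60S) subunit and 3 copies of other members (Rpl6l, Rpl32l and Rps4l). Of the 80 proteins of the mammalian ribosome it left out 4, whose genes are named otherwise. Of these, Rps3a1, Fau and Rack1 are given beside the members. The members lay on 19 chromosomes.

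Organoids were grown from intestinal crypts of Lgr5-EGFP-IRES-creERT2 mice, which carry EGFP and a tamoxifen-inducible Cre at the Lgr5 stem cell gene, in Matrigel with EGF, Noggin and R-spondin. Both cultures had this genotype and medium and were taken at day 4: 1 was a control, and 1 received dextran sulfate sodium (DSS), a sulfated polysaccharide that injures intestinal epithelium. Age of the mice and the number of animals were not given in the labels, and no dose was given for the sequenced culture. With 1 library per condition there was no replicate check, and every value below compares these 2 libraries.

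The cytosolic ribosome translates all nuclear-encoded mRNAs. Its 40S subunit reads the mRNA and its 60S subunit joins amino acids, and the proteins are needed in equal numbers because each particle holds a single copy of nearly all of them. Most of their mRNAs begin with a run of pyrimidines, the terminal oligopyrimidine (TOP) tract, through which mTORC1 and the RNA-binding protein LARP1 set how strongly they are translated. In the intestinal crypt, dividing stem and progenitor cells make many ribosomes, and differentiated villus cells make fewer.

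Start sites of 10 genes are shown first because the TOP tract is the sequence that ribosomal protein genes are known to share. Each window is 30 bases, 15 before and 15 from the annotated start of the gene, read 5′ to 3′ from the promoter sequences of RefSeq (GRCm38.p6). Capitals mark runs of at least 5 pyrimidines (C or T). The windows are ordered from the lowest to the highest DSS-to-control ratio of their genes, and the last 1 belongs to Fau, outside the rule.
Rpl12 (chr2:32961697-32961726, plus strand): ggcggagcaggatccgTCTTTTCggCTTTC
Rps18 (chr17:33955651-33955680, minus strand): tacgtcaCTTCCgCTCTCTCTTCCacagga
Rplp2 (chr7:141447636-141447665, plus strand): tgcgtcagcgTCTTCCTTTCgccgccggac
Rpl27a (chr7:109519180-109519209, plus strand): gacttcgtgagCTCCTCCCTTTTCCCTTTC
Rps6 (chr4:86857353-86857382, minus strand): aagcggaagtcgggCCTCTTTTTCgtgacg
Rpl35 (chr2:39005117-39005146, minus strand): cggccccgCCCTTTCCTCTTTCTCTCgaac
Rpl10 (chrX:74270801-74270830, plus strand): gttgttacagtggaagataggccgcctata
Rpl7a (chr2:26910792-26910821, plus strand): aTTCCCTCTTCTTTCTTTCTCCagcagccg
Rpl24 (chr16:55966260-55966289, plus strand): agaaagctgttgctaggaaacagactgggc
Fau (chr19:6057932-6057961, plus strand): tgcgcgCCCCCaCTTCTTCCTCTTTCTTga
The longest run in these windows was 21 bases, in Rpl7a, a gene at the upper end of the members' ratios. Rpl24 and Rpl10, also at the upper end, had no run of 5 at the annotated start. Fau had a run of 16 bases. These windows were chosen with the ratios known, so no order is read from them.

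Ribosomal protein mRNAs took a smaller part of the DSS library. Of 65493032 counts in the control library, 6302681 fell on the members, which is 9.62% (exact Clopper-Pearson 95% interval 9.62 to 9.63%). Of 59746968 counts in the DSS library, 1731213 did, which is 2.90% (2.89 to 2.90%). Intervals here and below cover counting error only, and reads amplified by PCR are not independent molecules. Among the 100 genes with the most counts there were 42 members in the control library and 1 in the DSS library. Among the 200 genes with the most counts the numbers were 71 and 9.

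Counts were scaled between the libraries with TMM factors, and the change of a gene is given as the log2 ratio of scaled counts, DSS over control, where -1 means 2-fold lower in DSS. All 79 members had at least 10 counts in a library and were among the 17235 genes tested. At or below -1 were 76 of the 79 members, against 20.2% of all tested genes. At or above 1 there were 0 members, against 19.3%. All 79 had a ratio below 0, against 52.0%, and each of the 79 intervals lay below 0. Only Rpl12 was at or below -2, against 6.54%. The median ratio of the members was -1.47, while that of all tested genes was -0.06. No p-value can be given with 1 library per condition.

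**Figure D1:**
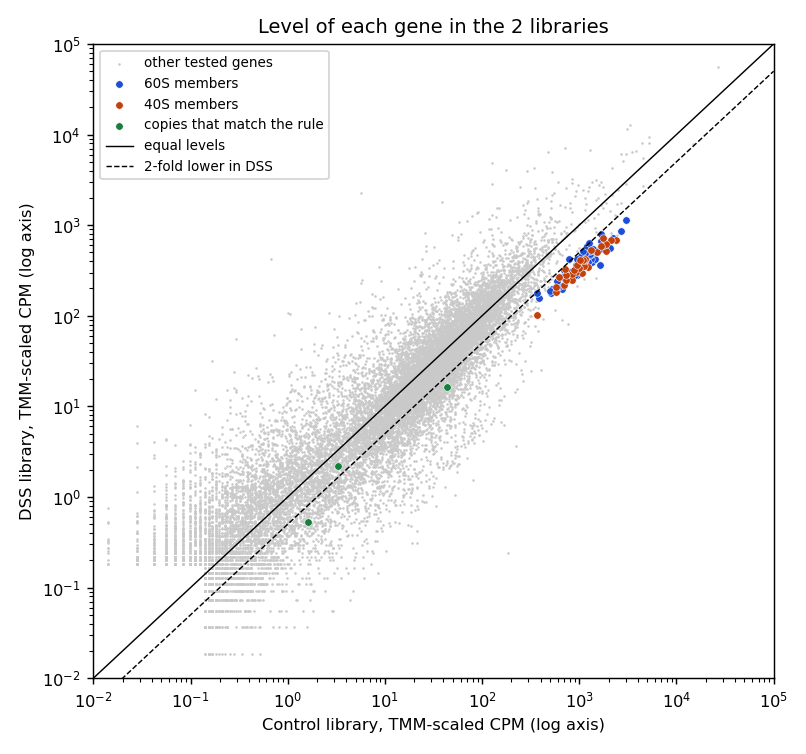
Level of each tested gene in the control library (x axis) and the DSS library (y axis), in TMM-scaled CPM (counts scaled to library size) on log axes, with 40S members, 60S members and the 3 copies in colour. The 76 members other than the copies form a narrow band at 365 to 3025 CPM in the control library and 103 to 1130 CPM in the DSS library, near or under the dashed line of 2-fold lower.

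The ratios of the members formed a narrow band. Their interquartile range ran from -1.63 to -1.31, and the standard deviation over members was 0.26 log2 units, compared with 1.45 over all tested genes. Counting error was smaller than this spread, with a median half-width of the 95% intervals of 0.02, so the members' ratios were not all equal in these 2 libraries. The order of the members by level was largely kept: across the 76 members other than the copies, Pearson's r between the control and DSS levels (log2 CPM) was 0.93 (Spearman's rho 0.92). Those points are genes of the same libraries and not independent replicates. The median level was 1077 CPM in the control library and 398 CPM in the DSS library.

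Other abundant genes and other short genes did not sit at this value. Non-members with at least 300 CPM in the control library numbered 339, had a median ratio of 0.04, and 14.7% of them were at or below -1. The 102 of these with a coding sequence under 1000 nt had a median ratio of 0.12, with 13 genes at or below -1. Within the members, the ratio was only weakly related to transcript length (r = -0.22), GC content of the transcript (r = -0.10) and log2 control CPM (r = -0.20), over 76 genes that share libraries and depth. These are descriptions with no test.

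Cell type markers differed between the same 2 libraries. The labels name the cells as intestinal stem cells, and Lgr5, the defining stem cell marker, had 18849 counts in the control library and 1048 in the DSS library. Genes of the epithelium were present in both, with Epcam at 67379 and 52502 counts and ratios over 6 genes from -0.03 to 1.25. Stem cell genes were at or below -1 in 5 of 5 cases, and their summed level went from 832 to 130 CPM. Cycling genes were at or below -1 in 7 of 8 cases, from 1401 to 246 CPM in sum. Enterocyte genes were at or above 1 in 7 of 7 cases, from 1566 to 20179 CPM, and goblet cell genes in 5 of 5, from 703 to 11136 CPM. Paneth cell genes were at or below -1 in 4 of 5 cases, tuft cell genes in 2 of 3, and enteroendocrine genes were at or above 1 in 5 of 5. Of all tested genes, 20.2% were at or below -1 and 19.3% at or above 1. The 3 tuft cell genes had few counts, 495 and 139 in sum, and only 1 of their intervals lay wholly below -1. Of 5 immune markers, 2 were listed (Lyz2 and Csf1r), with sums of 2.04 and 1.68 CPM, of 6 mesenchymal markers 3 were listed, with sums of 5.67 and 34.5 CPM, mostly Vim, and of 3 endothelial markers Pecam1 was listed, with 12 and 55 counts. In bulk RNA, fewer cells of a type and less RNA per cell cannot be told apart. The part of these cell type differences in the ribosomal protein ratios was not tested.

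Both subunits were lower, and the 40S slightly more so. The 30 members of the 40S subunit had a median ratio of -1.56, with Rps2 lowest at -1.88, and all 30 were at or below -1. The 46 members of the 60S subunit had a median of -1.41, from -2.17 (Rpl12) to -0.89 (Rpl24), and 44 were at or below -1. Counts on 40S members were 39.3% of all member counts in the control library and 37.2% in the DSS library. This share uses no scaling factor, and its intervals did not overlap (39.2 to 39.3% and 37.2 to 37.3%). The ranges of the subunits overlapped widely.

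The lowest ratios belonged to proteins of several places in the ribosome. Rpl12, at the base of the stalk that calls in the elongation factors, had 117156 counts in the control library and 19876 in the DSS library, a ratio of -2.17 (-2.19 to -2.15). It stood apart from the next member by more than any other neighbours in the order except Rpl24 and Rps4l. Rpl3, whose protein reaches towards the peptidyl transferase centre, had 148246 and 30736 counts (-1.88, -1.90 to -1.86). Rps2, at the entry of the mRNA channel, had 135752 and 28161 counts (-1.88). Those 2 genes did not differ beyond their counting intervals. Rps19, which is needed to mature the end of 18S rRNA and is the gene most often mutated in Diamond-Blackfan anaemia, had 75750 and 16173 counts (-1.84). Rps18, in the head of the 40S subunit, had 87644 and 18728 counts (-1.84). Rps21 had the fewest counts of the 40S members, 26144 and 5615 (-1.83). The intervals of Rps19, Rps18 and Rps21 overlapped. Rpsa, which is also known as the laminin receptor precursor, had 170880 and 37179 counts (-1.81). Rpl13 had 102749 and 23016 counts (-1.77). The stalk proteins Rplp1 (-1.82) and Rplp2 (-1.77) complete the 10 lowest.

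The upper end of the order was mostly of the 60S subunit. Rps4l, a copy of Rps4x, had the highest ratio but few counts, 235 and 119 (-0.59, -0.92 to -0.27). Rpl24, which is added late to the 60S particle and bridges to the 40S subunit, had 56400 and 23278 counts (-0.89, -0.91 to -0.87). Rpl7a had 91157 and 34989 counts (-0.99, -1.01 to -0.97). Its interval spans the 2-fold line, so its side of that line was not settled by the counts. Rpl10, which completes the 60S subunit in the cytoplasm, had 85231 and 32083 counts (-1.02), just past the line. Rpl38, linked to the translation of Hox mRNAs in the embryo, had 26427 and 9850 counts (-1.04). Rpl7 had 119269 and 44173 counts (-1.04). The intervals of Rpl38 and Rpl7 overlapped. Rpl19, which forms a bridge between the subunits, had 78856 and 28301 counts (-1.09). Rpl37a (-1.11) and Rpl18 (-1.17) were also among the 10 highest.

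**Figure D2:**
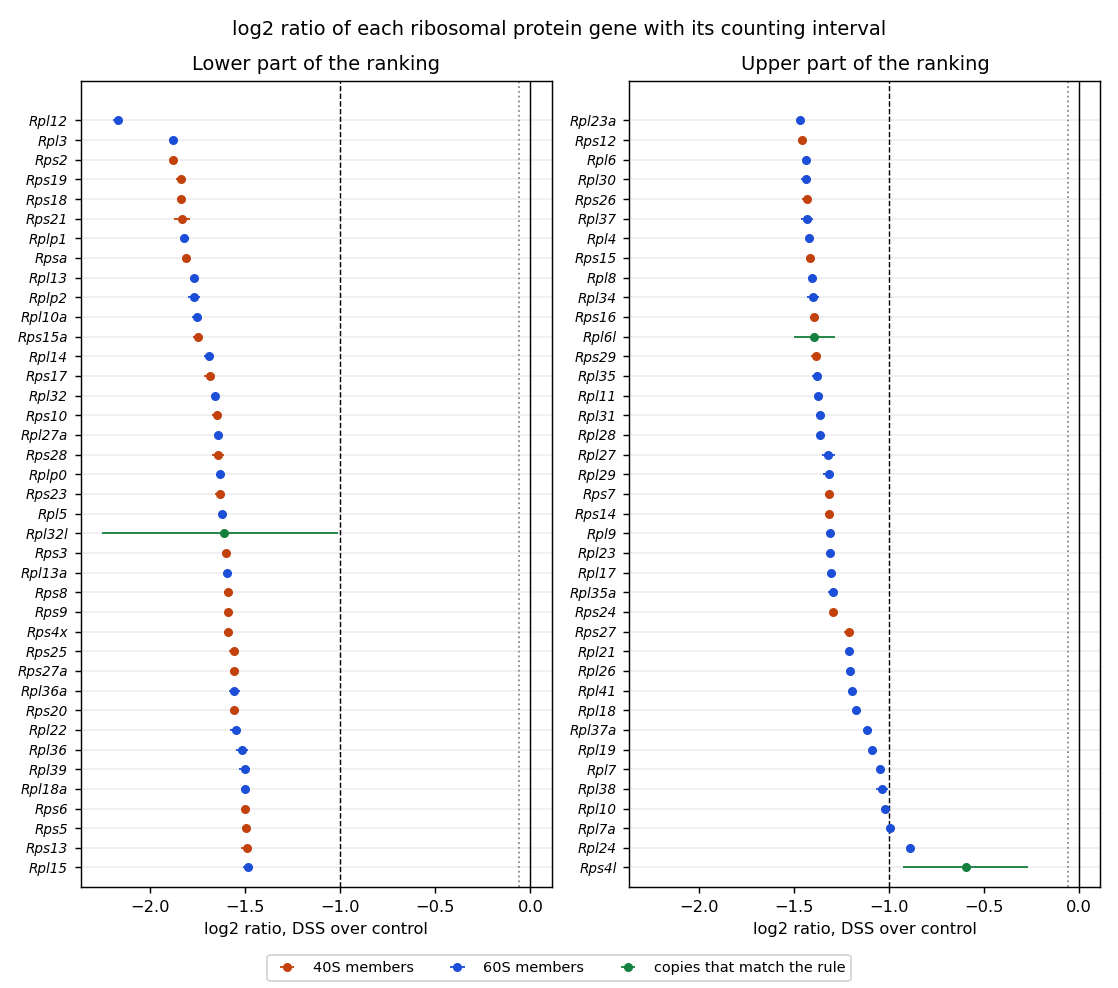
log2 ratio (DSS over control, TMM-scaled counts) of 78 of the 79 members, ranked, with bars for the exact 95% counting interval. The dashed line marks -1, the dotted line the median of all tested genes (-0.06). Points run from -2.17 for Rpl12 to -0.59 for Rps4l, and 3 (Rpl7a, Rpl24 and Rps4l) lie to the right of the dashed line.

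The 59 members between these ends of the order, 24 of the 40S subunit, 33 of the 60S subunit and 2 copies, ran from -1.75 (Rpl10a) to -1.19 (Rpl41). Rpl41, whose coding sequence of 75 nt is the shortest of the members, had 74174 and 24777 counts. Members with the most counts lay within the range of the others. Rpl4, the most counted member, had 216488 counts in the control library and 61798 in the DSS library (-1.42). The stalk base Rplp0 had 191515 and 47189 counts (-1.63), and Rpl5 had 157903 and 39207 counts (-1.62). Rps3 had 150241 and 37892 counts (-1.60). With Rpsa above, these are the 5 members with the most counts in the control library, and none of them was within the 10 highest ratios. All but Rpl4 lay below the members' median of -1.47, and Rpsa was among the 10 lowest.

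The balance among the members was then taken as each gene's share of all member counts, which needs no scaling between libraries. The share was higher in the DSS library for 37 members and lower for 34, and for 8 the interval of the log2 share ratio held 0. Rpl12 went from 1.86% of member counts to 1.15% (log2 ratio of shares -0.70, -0.72 to -0.67). Rpl24 went from 0.895% to 1.35% (0.59, 0.56 to 0.61). Beyond 0.5 in either direction were only these and Rps4l (0.88). Of 30 genes of the 40S subunit, 9 had a higher share and 18 a lower share. In the 60S subunit the numbers were 27 and 16 of 46.

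Structural groups were described next. All 4 stalk genes, which recruit and stimulate the translational GTPases, were at or below -1 with a median of -1.79 (Rplp0 -1.63, Rplp1 -1.82, Rplp2 -1.77 and Rpl12 -2.17). Rpl5 (-1.62) and Rpl11 (-1.37) carry 5S rRNA into the 60S subunit and, when unassembled, bind the p53 ligase MDM2. Rpl23, another MDM2-binding protein, had 126777 and 39118 counts (-1.31). Rpl4 (-1.42), Rpl17 (-1.30) and Rpl39 (-1.50) line the tunnel through which the nascent chain leaves. Rpl17 had 118903 and 36781 counts and Rpl39 had 42048 and 11331. Rps6, the 40S protein phosphorylated by S6 kinase, had 119263 and 32233 counts (-1.50). Rps3 (-1.60) and Rps2 (-1.88) form the mRNA entry site. Apart from Rpl12, each of these genes lay within the range of the members that belong to none of the groups.

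Genes for ribosomal proteins with other names were more spread. Rack1, the scaffold on the 40S head, had 163175 and 35861 counts (-1.80, -1.81 to -1.78). Rps3a1 had 126405 and 38101 counts (-1.34). Fau, a fusion of a ubiquitin-like protein and the 40S protein S30, had 51950 and 30106 counts (-0.40, -0.42 to -0.38). Its ratio was above the value of each member, though the interval of Rps4l (-0.92 to -0.27) held it. Rps27a, a member whose protein is made as a fusion with ubiquitin, had 70331 and 18250 counts (-1.56).

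Paralogs outside the rule were set beside their related member in 4 pairs, and in each the paralog was less reduced. Rps4l, which matches the rule, is set beside Rps4x with the copies below. Rps27l, a target gene of p53 and paralog of Rps27, had 8570 and 5557 counts (-0.24, -0.29 to -0.19), while Rps27 had 43869 and 14489 (-1.21). Rps27l made up 16.3% of the counts of the pair in the control library (16.0 to 16.7%) and 27.7% in the DSS library (27.1 to 28.3%). Rpl36al had 12158 and 5035 counts (-0.88), while Rpl36a had 44443 and 11542 (-1.56), and the paralog's share went from 21.5% to 30.4%. Rpl22l1 had 7040 and 2044 counts (-1.40), close to Rpl22 with 44828 and 11701 (-1.55), and its share went from 13.6% to 14.9%. Rpl7l1, a relative of Rpl7 that acts in 60S assembly, had 6142 and 2661 counts (-0.82, against -1.04 for Rpl7). The paralogs Rpl3l, Rpl10l, Rpl39l and Rpl26l1 were looked for but were not among the listed genes, so they have no values. In these 4 pairs the paralog's ratio exceeded that of the member by 0.15 (Rpl22l1) to 0.97 (Rps27l) log2 units.

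**Figure D3:**
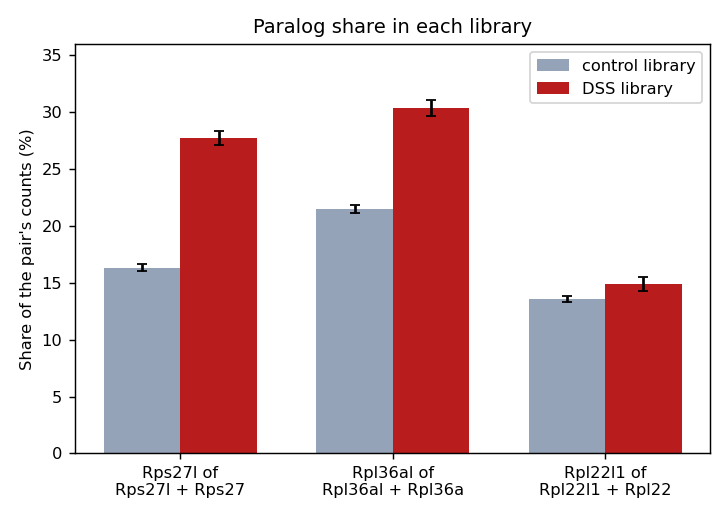
Share of the counts of each pair that fell on the paralog, in percent, in the control and DSS libraries, with exact 95% counting intervals. Rps27l went from 16.3% to 27.7%, Rpl36al from 21.5% to 30.4% and Rpl22l1 from 13.6% to 14.9%.

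Copies of the members share long stretches of sequence with them, and reads can be split between them by the counting. The coding sequences of Rpl6 and Rpl32 were 96.8% and 95.8% identical to Rpl6l and Rpl32l, and that of Rps4x was 79.8% identical to Rps4l. Rpl6l had 3093 and 901 counts (-1.39), next to -1.44 for Rpl6. Rpl32l had 116 and 29 counts (-1.61, -2.25 to -1.01), next to -1.66 for Rpl32. The ratios of Rpl6l and Rpl32l were near those of the parents, and because reads may be shared the values are uncertain. Rps4l did not lie near its parent. Its ratio was -0.59 (-0.92 to -0.27), on 235 and 119 counts, beside -1.59 (-1.61 to -1.57) for Rps4x. RefSeq lists Rpl6l and Rps4l as pseudogenes. Further copies whose names fall outside the rule (Rps3a2, Rps3a3, Rps12l1, Rps27rt and Rpl37rt) had ratios from -1.34 to -0.94.

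The table also held 164 entries with -ps in the symbol, which name processed copies of ribosomal protein genes. Of the 137 tested, 136 had a ratio below 0, against 52.0% of all tested genes, and 12 had an interval that held 0. The median of the 137 was -1.39. Some of them met the count filter in the control library only, such as Rpl27-ps2 with 58 and 3 counts. For those the filter itself favoured a ratio below 0, so their direction is not read. To compare entries with their parents, the 106 with at least 100 counts in the control library were used, from 47 parent genes, with a median ratio of -1.40. That floor lies on the library where the entries are high, so the direction of these 106 is not read. Their ratio followed that of the parent gene (Pearson's r = 0.81, Spearman's rho = 0.81 across 106 entries, which share libraries and often a parent). For 82 of them (77.4%) the entry's interval held the parent's ratio, and the median difference from the parent was 0.12 in size. The median identity to the parent's coding sequence was 99.0% over the 102 entries with a value. Rpl15-ps3, the copy with the most counts, had 7368 and 2078 counts (-1.44), matched the whole coding sequence of Rpl15 and stood beside -1.48 for Rpl15. The entries took 1.78% of the counts of members and copies in the control library and 1.83% in the DSS library. Whether those reads came from the copies or from the parent mRNAs was not tested.

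**Figure D4:**
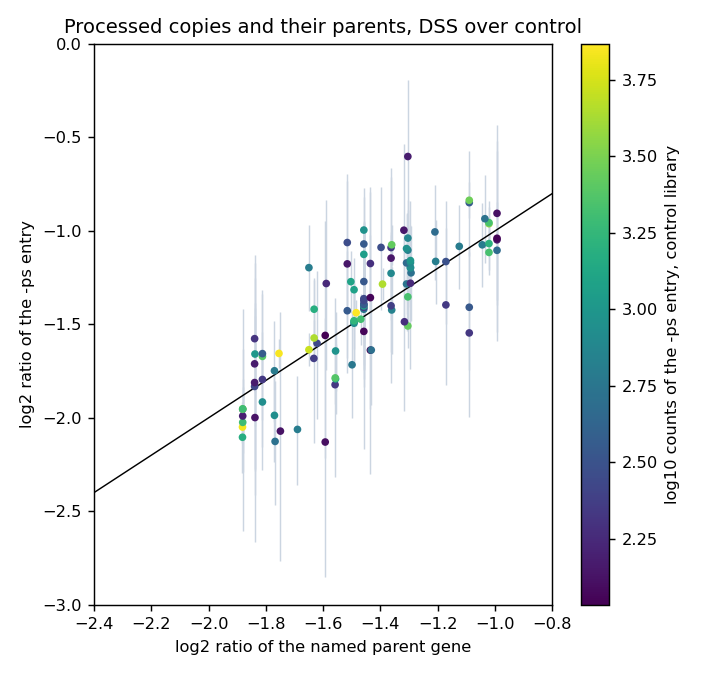
log2 ratio (DSS over control) of each of 106 -ps entries (y axis) against that of the parent gene (x axis), with bars for exact 95% counting intervals, colour for log10 control counts and a line of equality. Entries lie along the line (r = 0.81), from -2.13 to -0.60.

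At the promoter, 5 of the 6 sets of letters searched were more frequent in members than in all promoters, and TATAAA was less frequent. RefSeq gave promoter sequences for 57 of the 79 members, 67 sequences in all. A run of at least 8 pyrimidines on the coding strand within 20 bases of the start was in 30 of the 67 member promoters, or 44.8%, compared with 16.0% of 32851 promoters of all genes. CTTTC in the same strand and window, which can lie within such a run, was in 26.9%, against 5.49%. In the whole promoter, 250 bases before and 50 after the start, and on both strands, CCGGAAG, letters of the ETS factor site, was in 35.8% against 8.86%. GGGCGG, letters of the SP1 site, was in 59.7% against 35.7%, and CACGTG, the E-box, in 11.9% against 7.15%. TATAAA was in 10.4% against 13.6%. Several genes contribute more than 1 promoter, and a match is not a bound site.

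Median ratios of members with and without these letters are given side by side. The 29 genes with a run of 8 pyrimidines had a median ratio of -1.48, and the other members with a promoter had -1.46. The medians were -1.46 and -1.49 with and without CTTTC, -1.57 and -1.43 with and without GGGCGG, and -1.44 and -1.52 with and without CCGGAAG. They were -1.50 and -1.48 with and without CACGTG. The widest gap was for TATAAA, held by 7 members, with -1.61 and -1.43. That -1.61 is the ratio of Rpl32l, a copy with 116 and 29 counts and an interval of -2.25 to -1.01. Small nucleolar RNAs (snoRNAs), which guide the modification of rRNA, lay inside 29 of the 76 members other than copies, 58 snoRNAs in all with at most 5 in a gene (Rpl4). Those 29 members had a median of -1.50 and the 47 without a snoRNA had -1.41. These medians are descriptions, and the differences were not tested.

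Other genes of translation were at or below -1 in smaller shares than the members. For each list below, the share of all tested genes at or below -1 is 20.2% and their median is -0.06. The other known TOP mRNAs were at or below -1 in 11 of 19 cases (57.9%) with a median of -1.04. This list overlaps others: it holds the ribosomal protein gene Fau, its highest at -0.40, and Eef1a1, which is also counted among the elongation factors. Lowest among them were Nap1l1, a histone chaperone (16163 and 1603 counts, -2.95), and Npm1, a nucleolar chaperone (67835 and 11642 counts, -2.15). Tpt1, also called TCTP, had 173038 and 93705 counts (-0.50), and Btf3 of the nascent chain complex had 25320 and 12012 (-0.69). Elongation factors were at or below -1 in 3 of 8 cases (37.5%) with a median of -0.83. The 3 were subunits of the exchange factor of eEF1A: Eef1g (-1.69), Eef1b2 (-1.60) and Eef1d (-1.17). Eif5a2, the less abundant paralog of Eif5a (-0.71), had 91 and 246 counts (1.82), and Eef2k, the kinase of Eef2, had a ratio of -0.74. Eef1a1 had 1049410 and 425643 counts (-0.91) and Eef2 327490 and 148408 (-0.75).

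Initiation factors were at or below -1 in 11 of 36 cases (30.6%, beside 20.2% of all tested genes) with a median of -0.82. Eif2b3 of the eIF2 exchange factor (-1.49), the poly(A)-binding protein Pabpc1 (-1.41) and Eif3i (-1.25) were lowest. Eif5 (0.17) and Eif1 (0.30) were above 0. Eif6, which keeps free 60S subunits from joining 40S subunits, had 6270 and 8234 counts (0.78). Of 5 release and recycling factors, 1 was at or below -1 (Abce1, -1.03), a share near that of all tested genes, Pelo had a ratio of -0.72 and Hbs1l had 0.24, with Etf1 (-0.11) and Gspt1 (-0.40) between. Of 7 genes that sense or clear stalled ribosomes, 2, or 28.6%, were at or below -1 (Map3k20, -1.67, and Eif2ak4, -1.04), and Gcn1 (-0.62), Nemf (-0.22), Zfp598 (-0.10) and Ascc3 (0.01) were above.

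Genes that build ribosomes were at or below -1 in 39 of 48 cases with a median of -1.62, and were spread more widely than the members. Lowest were Dkc1, the pseudouridine synthase (4546 and 369 counts, -3.23), its partner Gar1 (2348 and 200 counts, -3.16) and Grwd1 (1904 and 203 counts, -2.84). Bop1 (-0.29), Ltv1 (-0.41) and Rrp12 (-0.48) were highest, all below 0. Host genes of snoRNAs, whose spliced RNA often begins with a TOP tract but codes for no known conserved protein, were at or below -1 in 9 of 10 cases with a median of -1.39. Gas5 had 30302 and 4977 counts (-2.22), Snhg17 had 2746 and 403 (-2.38), Zfas1 had 7266 and 1788 (-1.63), and Snhg5 (-1.26), Snhg8 (-1.09) and Snhg3 (-0.90) were the highest.

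Regulators of TOP mRNAs lay on both sides of 0, from -0.99 to 1.41. Of 16 genes of mTORC1, its targets and the LARP family, 0 were at or below -1, 1 was at or above 1, and the median was -0.10, beside -0.06 for all tested genes. Mtor had 4033 and 3549 counts (0.20). Larp1 had 16004 and 7616 counts (-0.68), Eif4ebp1, the translation repressor that mTORC1 inactivates, 5712 and 2196 (-0.99), and Eif4ebp2 13566 and 7472 (-0.47). Larp1b had 3693 and 7486 counts (1.41), Rps6kb2, an S6 kinase, 1087 and 1298 (0.64), and Larp4b 11330 and 12081 (0.48). Transcript levels do not measure kinase activity.

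Proteins of the mitochondrial ribosome, a separate particle, served as a comparison of like size. Of 78 genes, 10 were at or below -1, which is 12.8% and under the 20.2% of all tested genes, against 76 of 79 for the cytosolic ribosome, and 11 were above 0. Their median was -0.56. Mrps28 (1230 and 308 counts, -1.61), Mrps30 (-1.43) and Mrps27 (-1.34) were lowest, and Mrpl14 (1597 and 1795 counts, 0.56), Mrps15 (0.40) and Mrps36 (0.33) were highest. The standard deviation over these genes was 0.44, compared with 0.26 over the cytosolic members.

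**Figure D5:**
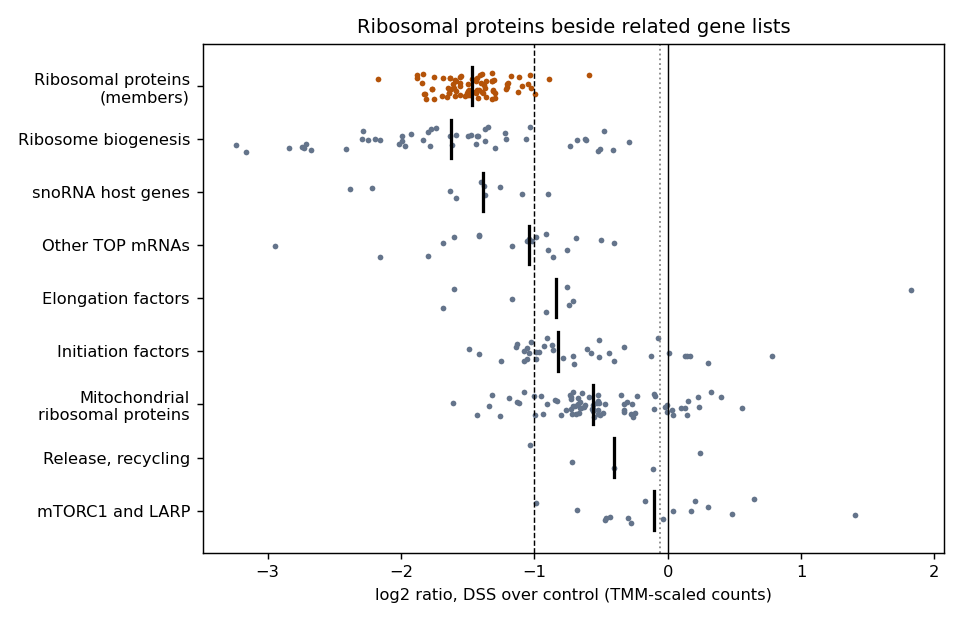
log2 ratio (DSS over control) of the members and of related gene lists, 1 point per tested gene, with a bar at each list's median, a dashed line at -1 and a dotted line at the median of all tested genes (-0.06). The cytosolic members form the tightest of the larger lists around -1.47, biogenesis genes reach further down around -1.62, and the mTORC1 and LARP genes lie around -0.10.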

How the data were processed

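As deposited, the table holds unnormalised read counts of each gene in both libraries, with NCBI identifiers and symbols. The 2 single-sample tables are named as FPKM but held the same counts in all 19294 genes, so no FPKM was used. HISAT2 and StringTie are named in the submitters' processing notes without versions or settings, and the genome build was not given in the sources used here. The kit was stranded, and how the counting used strand is not stated. The lowest count in the table was 1.

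TMM factors (edgeR 4.0.16, R 4.3.3) were 1.09 for control and 0.915 for DSS. Genes with at least 10 counts in either library were kept (17235). Intervals were exact Clopper-Pearson at 95% (scipy 1.17.1). The 2-fold line (log2 of 1) stood in for a test, since 1 library per condition gives none. Lengths, GC content and identity (edlib 1.3.9.post1) came from GENCODE mouse release 21, and promoters and snoRNA positions from RefSeq GRCm38.p6. For identity, alignments were taken to the parent's coding sequence. Members and gene lists were chosen with earlier results of these data known, so no list supports another. Genes were named by rank (10 lowest and 10 highest members, 5 with the most control counts, structural groups and paralogs, and the 3 lowest and 3 highest of each related list with at least 50 counts in a library). The start windows shown, the copies outside the rule, Rpl41, Rpl10a, Mtor, Eef1a1, Eef2, Eif5a, Rpl15-ps3 and the cell type markers named singly were chosen after their values were seen. Alternatives were other scaling factors, a prior count, thinning, filters, other lines, other denominators and other member sets. Centring, factors without the members, and adding the -ps counts to their parents were chosen after seeing the data. Values of 1 member and 1 further gene that the rule would name are not reported here.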

Additional observations from a re-analysis of the deposited data

How the results depend on the processing

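All 79 members stayed below 0 under every scaling tried, and from 72 (upper quartile factors) to 78 (total counts) were at or below -1 across the scalings. The share of all tested genes at or below -1 moved too, from 18.3% (upper quartile factors) to 26.2% (total counts). The line of 2, with TMM, left 1 member, against 6.54% of all tested genes. The median of the members was -1.72 with total counts, -1.38 with upper quartile factors and -1.41 when centred on the median of all genes. Total counts shifted the median of all genes by -0.26, and of the genes past either line 37.1% were then higher in DSS, against 48.9% with TMM. Under total counts the 40S and 60S medians were -1.81 and -1.67. At or below -1 were then 16 of 19 other TOP mRNAs, 5 of 8 elongation factors and 19 of 36 initiation factors. Of the mTORC1 and LARP genes it was 1 of 16, and of the mitochondrial ribosomal proteins 18 of 78. The share of all tested genes to set beside each of these is 26.2%. The members' share was 10.5% and 3.29% (control and DSS) without the 10 most abundant other genes, and 10.2% and 3.11% when -ps entries and ribosomal protein genes with other names were added. None of the recomputed medians of the members or of the related lists changed sign. The median of all tested genes did, from -0.06 with TMM to 0.03 with upper quartile factors. No paired analysis was possible because each condition had 1 library, and for the same reason no replicate could be left out. Depth does not limit the main members, but it does limit Rps4l and Rpl32l.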
